A study of Homo sapiens with 4 samples.

Results

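The ATF4 programme, 33 genes that answer integrated stress signals and amino acid supply, was followed in human multiple myeloma cells. The members were chosen by gene name, from a list drawn up with earlier results of these data known; all 33 were found among the 60612 genes listed for each line. RNA had been sequenced from 2 established myeloma lines, H929 and KMS28BM, each with 1 library labelled after sorting on a microfluidic chip and 1 labelled before it, 4 libraries in all. No drug, gene edit or other agent is named for any of them. The series title appears to call the libraries labelled after sorting the unsorted ones. The sample labels are followed, and should the title hold instead, every difference between after and before has the opposite sign.

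ATF4 is a transcription factor that cells make when general translation slows. Kinases that sense amino acid shortage, misfolded protein, haem loss or double-stranded RNA phosphorylate the initiation factor eIF2, which lowers most protein synthesis but lets ribosomes reach the ATF4 reading frame. ATF4 then turns on genes that import and make amino acids, charge tRNA and feed carbon into serine and folate metabolism, together with genes that limit the response or, if it persists, promote cell death. Plasma cells and many myeloma cells secrete large amounts of antibody. How far they lean on the ATF4 response was not examined here.

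Values are FPKM, fragment counts scaled to transcript length and library depth. A ratio below is the log2 of FPKM plus 1 in the library labelled after sorting over that in the library labelled before; the added 1 makes the ratios of low genes smaller than their fold. A gene was counted as measured in a line where either library reached 1 FPKM, and 2-fold was the threshold for calling a gene apart. Each group is a single library, so differences within a line have no replicates behind them and carry no p-value. By the estimated depth of the libraries, 1 FPKM on a transcript of 2000 bases stood for between 42.3 and 49.6 fragments. Of 11 plasma cell markers, 10 reached 1 FPKM in both H929 libraries and 11 in both KMS28BM libraries. Their summed level was 1120 FPKM after sorting against 2098 before in H929, and 3044 against 2026 in KMS28BM. Markers of monocytes, T and NK cells, stroma, endothelium, red cells, epithelium and fat cells summed to at most 13 FPKM per cell type in any library. The part of this shift in plasma cell markers in the results below was not tested.

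ATF4 binds, with C/EBP partners, to an element whose core reads TGATGNAA. The RefSeq promoter windows on GRCh38.p14, from 250 bases before to 50 after an annotated start, covered 26 of the 33 genes with 45 windows. The core, searched on both strands, was in 9 of these 45 windows (20%), each from a different gene, and in 3.62% of all 35116 windows. By gene it was in 9 of 26 (34.6%), against 4.46% of 27305 genes. The form TTGCATCA, which is the reverse complement of a core with C at the open position and so always overlaps it, was in 5 of the 45 windows (11.1%) and in 0.866% of all windows. The cAMP response element TGACGTCA was in 1 of the 45, at PPP1R15A (2.22%), against 1.85% of all windows. The stretches around the core are printed because they show the element in the members that hold it; capitals mark the core, read on the strand where it spells TGATGNAA. A match is a description of the sequence, and binding was not measured.

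CHAC1 (chr15:40953251-40953280, minus strand; core at -209 from the start): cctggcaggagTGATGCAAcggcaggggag
CEBPG (chr19:33374060-33374089, plus strand; core at -42): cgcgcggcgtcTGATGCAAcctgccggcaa
ASNS (chr7:97872458-97872487, minus strand; core at -68): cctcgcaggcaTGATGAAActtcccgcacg
SLC7A1 (chr13:29595663-29595692, minus strand; core at 8): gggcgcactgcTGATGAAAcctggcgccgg
SLC1A4 (chr2:64989381-64989410, minus strand; core at -7): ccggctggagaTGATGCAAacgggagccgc
JDP2 (chr14:75427995-75428024, plus strand; core at -16): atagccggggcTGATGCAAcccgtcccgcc
SLC1A5 (chr19:46784893-46784922, minus strand; core at -97): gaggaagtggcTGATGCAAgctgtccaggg
ATF3 (chr1:212565205-212565234, plus strand; core at -191): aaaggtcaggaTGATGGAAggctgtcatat

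The core in SLC3A2, at 38 bases after the start on the opposite strand, lay too near the end of its window to be shown with the same flanks. Of the genes with a core, CHAC1 and CEBPG were at least 2-fold lower in H929 after sorting. In CHAC1 the core lies on the strand opposite to the gene, so that in the gene's own direction it reads as TTGCATCA, in capitals here within the whole window (chr15:40953221-40953520, plus strand):

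CHAC1 window: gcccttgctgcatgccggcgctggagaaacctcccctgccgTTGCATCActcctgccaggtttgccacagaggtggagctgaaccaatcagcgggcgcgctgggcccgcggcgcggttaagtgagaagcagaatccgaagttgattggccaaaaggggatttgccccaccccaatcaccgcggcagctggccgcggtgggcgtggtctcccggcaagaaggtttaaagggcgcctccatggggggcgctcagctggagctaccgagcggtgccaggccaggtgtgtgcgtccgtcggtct

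The 9 genes with a core had a median ratio of -0.29 in H929 and 0.04 in KMS28BM, and the 16 measured genes with windows but no core had -0.52 and -0.10. Those without one in these windows included TRIB3, CTH and PSAT1, which were all at least 2-fold lower in H929. The plot of core positions gives all 9.

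**Figure D1:**
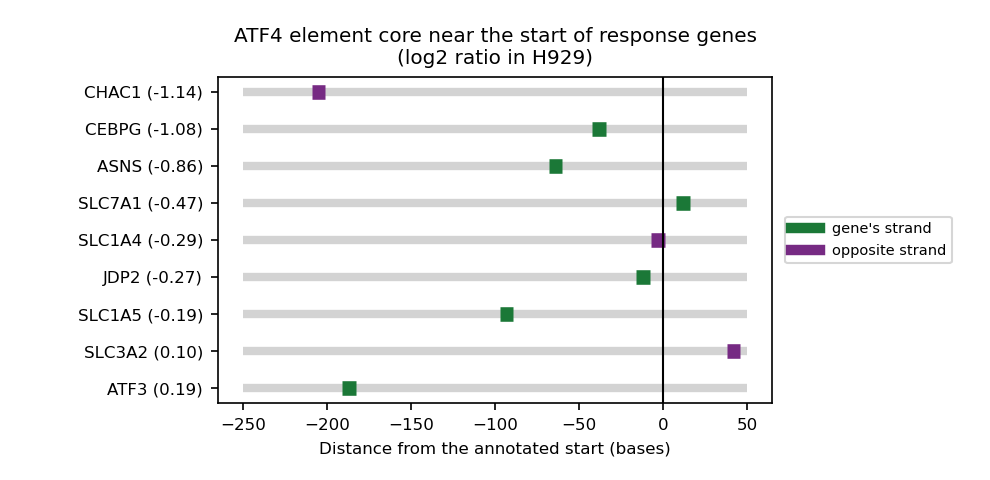
Position of the TGATGNAA core in the promoter windows of the 9 genes that hold one, as distance in bases from the annotated start (0), with each gene's log2 ratio in H929 in brackets; green marks the gene's strand and purple the opposite one. The cores lie at -209 to 38 from the start, and the genes with one run from a ratio of -1.14 at CHAC1 to 0.19 at ATF3.

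In H929, genes of the programme were mostly lower in the library labelled after sorting. Of the 31 members measured, 25 had ratios below 0, 7 were 2-fold or more lower and 0 were 2-fold higher, with a median of -0.49 and a range of -1.34 to 0.52. The 7 are 22.6% of the members measured; over all 11083 H929 genes measured, 5.17% were 2-fold lower and 1.59% higher, 58.3% had ratios below 0 and the median was -0.11. In KMS28BM the ratios fell on both sides of 0: 16 of 31 were below 0, or 22 with trimmed-mean scaling between the libraries (21 of 31 in H929), 0 were 2-fold lower and 1 was 2-fold higher, with a median of -0.01. Over all genes 40.6% had ratios below 0 in KMS28BM, and with trimmed-mean scaling 54.7% had in KMS28BM and 42.6% in H929. Over the 10472 KMS28BM genes measured, 1.12% were 2-fold lower and 4.13% higher, and the median was 0.12. RNA from a whole culture cannot tell fewer cells of a kind from less RNA per cell. VLDLR, a lipoprotein receptor, and NUPR1, a stress-induced chromatin protein, stayed under 1 FPKM in all 4 libraries, with highest values of 0.66 and 0.16 FPKM, and were not counted.

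**Figure D2:**
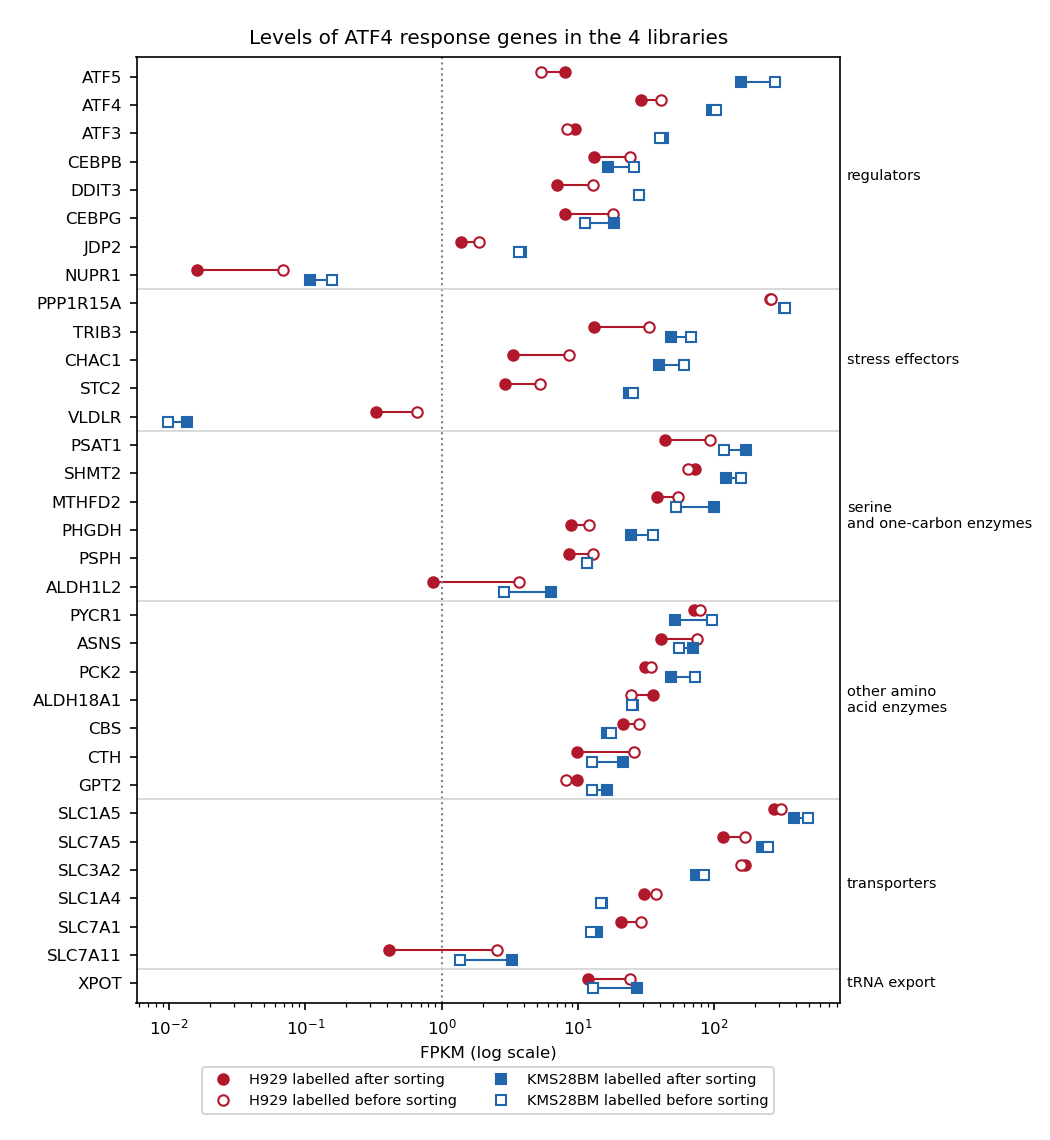
FPKM (log scale) of the 33 genes in the 4 libraries, grouped by role; filled symbols are libraries labelled after sorting and open symbols those labelled before, red circles H929 and blue squares KMS28BM, and the dotted line is at 1 FPKM. In H929 the filled symbol lies left of the open one for 27 of 33 genes, and for ATF5, CHAC1 and STC2 both KMS28BM libraries lie far to the right of both H929 libraries.

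Among the regulators, ATF4 itself (ENSG00000128272) was listed at 28.9 FPKM after sorting against 41.0 before in H929, a ratio of -0.49, and at 95.6 against 103 FPKM in KMS28BM, a ratio of -0.11. DDIT3 (ENSG00000175197), which encodes the death-promoting factor CHOP, stood at 6.96 against 12.9 FPKM in H929 and at 28.1 against 28.2 in KMS28BM. Both were lower after sorting in H929 without reaching 2-fold, and both KMS28BM libraries lay above both H929 libraries. CEBPG, a C/EBP partner of ATF4, was the regulator with the lowest ratio in H929, at 7.97 against 17.98 FPKM (-1.08), and it was higher after sorting in KMS28BM, at 18.3 against 11.2 (0.65). CEBPB, another C/EBP factor, was lower after sorting in both lines, at 13.1 against 24.1 FPKM in H929 (-0.83) and 16.7 against 25.8 in KMS28BM (-0.60).

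ATF5, a relative of ATF4 under the same translational control, was among the 6 members with ratios above 0 in H929. It was at 7.98 FPKM after sorting against 5.34 before in H929, a ratio of 0.50, and at 158 against 279 in KMS28BM, a ratio of -0.82. ATF3, which is induced by ATF4 and by other stresses, was at 9.58 against 8.28 FPKM in H929 and 41.9 against 39.9 in KMS28BM, and JDP2, which can repress ATF-dependent transcription, at 1.38 against 1.87 and 3.80 against 3.72. The ratios of ATF3 and JDP2 stayed between -0.27 and 0.19 in both lines. Over the 7 regulators measured the median ratio was -0.49 in H929 and -0.01 in KMS28BM.

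Of the stress effectors, TRIB3 (ENSG00000101255), a pseudokinase that ATF4 and CHOP induce and that feeds back on ATF4, stood at 13.1 FPKM after sorting against 33.2 before in H929, a ratio of -1.27. CHAC1 (ENSG00000128965), which degrades glutathione, was at 3.35 against 8.58 FPKM, a ratio of -1.14. In KMS28BM TRIB3 was at 48.0 against 67.7 FPKM and CHAC1 at 39.6 against 60.1, ratios of -0.49 and -0.59. As deposited, TRIB3 and CHAC1 were thus lower after sorting in both lines, 2-fold in H929 alone. Their KMS28BM ratios were -0.24 and -0.25 with a trend in GC content and length removed, as described below. Both stood higher in each KMS28BM library than in any H929 library. STC2, a secreted glycoprotein, was at 2.91 against 5.23 FPKM in H929 (-0.67) and 23.8 against 25.5 in KMS28BM (-0.10). PPP1R15A, known as GADD34, the phosphatase subunit that reverses eIF2 phosphorylation, hardly differed, at 258 against 262 FPKM in H929 and 327 against 331 in KMS28BM; it was among the 3 highest genes of the set.

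The serine and one-carbon enzymes were split. PSAT1, the aminotransferase of serine synthesis, was at 43.6 FPKM after sorting against 93.1 before in H929 (-1.08) and at 171 against 117 in KMS28BM (0.54). ALDH1L2, the mitochondrial formyltetrahydrofolate dehydrogenase, was at 0.87 against 3.72 FPKM in H929 (-1.34) and 6.30 against 2.85 in KMS28BM (0.92). MTHFD2, a mitochondrial folate dehydrogenase, was at 37.8 against 54.3 FPKM in H929 (-0.51) and 99.3 against 52.1 in KMS28BM (0.92). All 3 were lower after sorting in H929 and higher after sorting in KMS28BM. PHGDH, the first enzyme of serine synthesis, was lower in both lines, at 8.85 against 12.2 FPKM (-0.42) and 24.6 against 35.4 (-0.51), while SHMT2, the mitochondrial serine hydroxymethyltransferase, was at 72.5 against 63.9 in H929 (0.18) and 122 against 158 in KMS28BM (-0.37). PSPH, the phosphatase of the same pathway, was at 8.67 against 12.8 FPKM in H929 and 11.7 against 11.6 in KMS28BM; its pseudogene PSPHP1, which shares 2.30% of the 50-base words of PSPH, was listed at 24.2 and 20.7 FPKM in KMS28BM and at the floor of 0.0001 FPKM in H929.

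Among the other amino acid enzymes, CTH, the cystathionine lyase that makes cysteine, was at 9.77 FPKM after sorting against 25.7 before in H929, a ratio of -1.31, and at 21.6 against 12.7 in KMS28BM, a ratio of 0.72. ASNS, asparagine synthetase, the classic target of ATF4, was at 40.9 against 74.9 FPKM in H929 (-0.86) and 70.4 against 55.6 in KMS28BM (0.34). CTH and ASNS showed the same split between the lines as PSAT1. PYCR1, of proline synthesis, was at 71.3 against 79.3 FPKM in H929 (-0.15) and 51.5 against 96.3 in KMS28BM (-0.89), the lowest ratio of the set in that line, and PCK2, the mitochondrial phosphoenolpyruvate carboxykinase, at 31.1 against 34.7 and 48.6 against 72.6. ALDH18A1, the enzyme before PYCR1 in the proline pathway, had the highest ratio of the set in H929, at 35.7 against 24.5 FPKM (0.52), and GPT2, an alanine aminotransferase, was higher after sorting in both lines, with ratios of 0.25 and 0.34.

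CBS, the cystathionine synthase that acts before CTH, cannot be read alone. It shares 54.5% of its 50-base words with its near-identical copy CBSL, so fragments can be assigned to either. In H929 CBS was at 21.4 FPKM after sorting against 27.9 before, while CBSL was at the floor after sorting against 24.1 FPKM before. Summed, an alternative chosen after the values were seen, the pair was at 21.4 against 52.0 FPKM in H929, a ratio of -1.24 in place of -0.36 for CBS alone, and at 33.5 against 40.1 in KMS28BM, a ratio of -0.25. With the sum, 8 members were 2-fold lower in H929. ASNS shares 40.6% of its words with the unnamed gene model AC079781.5, though models of that name reached at most 2.23 FPKM, and ATF4 shares 17.9% with other genes, among them 11.5% with its pseudogene ATF4P3, at 2.16 FPKM or less; their values are uncertain to that extent.

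The amino acid carriers included 2 of the 3 highest genes of the set, SLC1A5 and SLC7A5, and mostly had small ratios. SLC1A5, the glutamine carrier ASCT2, was at 273 FPKM after sorting against 311 before in H929 and 385 against 488 in KMS28BM. SLC7A5, the large neutral amino acid carrier LAT1, was at 116 against 168 FPKM in H929 (-0.53) and 223 against 246 in KMS28BM (-0.14), and its partner chain SLC3A2 (CD98) at 168 against 157 and 74.0 against 84.9. SLC7A11, the cystine carrier xCT, was the exception, at 0.41 against 2.56 FPKM in H929 (-1.33) and 3.29 against 1.36 in KMS28BM (0.86). It was the lowest of the 6 carriers in every library, and after sorting in H929 about 90.2 fragments stood behind it by the depth estimate. The cationic carrier SLC7A1 and the neutral carrier SLC1A4 had ratios of -0.47 and -0.29 in H929, and of 0.14 and 0.04 in KMS28BM. XPOT, which exports tRNA from the nucleus, was at 11.9 against 23.9 FPKM in H929 (-0.95) and 26.9 against 12.8 in KMS28BM; at a ratio of 1.014 it was the 1 member 2-fold higher there.

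The authors' deposited table marks 2 of the 33 genes as significant in H929, SLC7A11 and ALDH1L2, both lower, and 0 in KMS28BM. It carries q-values of 0.0664 for SLC7A11 and 0.259 for ALDH1L2 in H929, so the mark does not rest on a q-value under 0.05. Over all 60612 genes the authors' table marks 1.57% in H929 and 0.967% in KMS28BM; the labels and files do not say which test stands behind the mark.

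**Figure D3:**
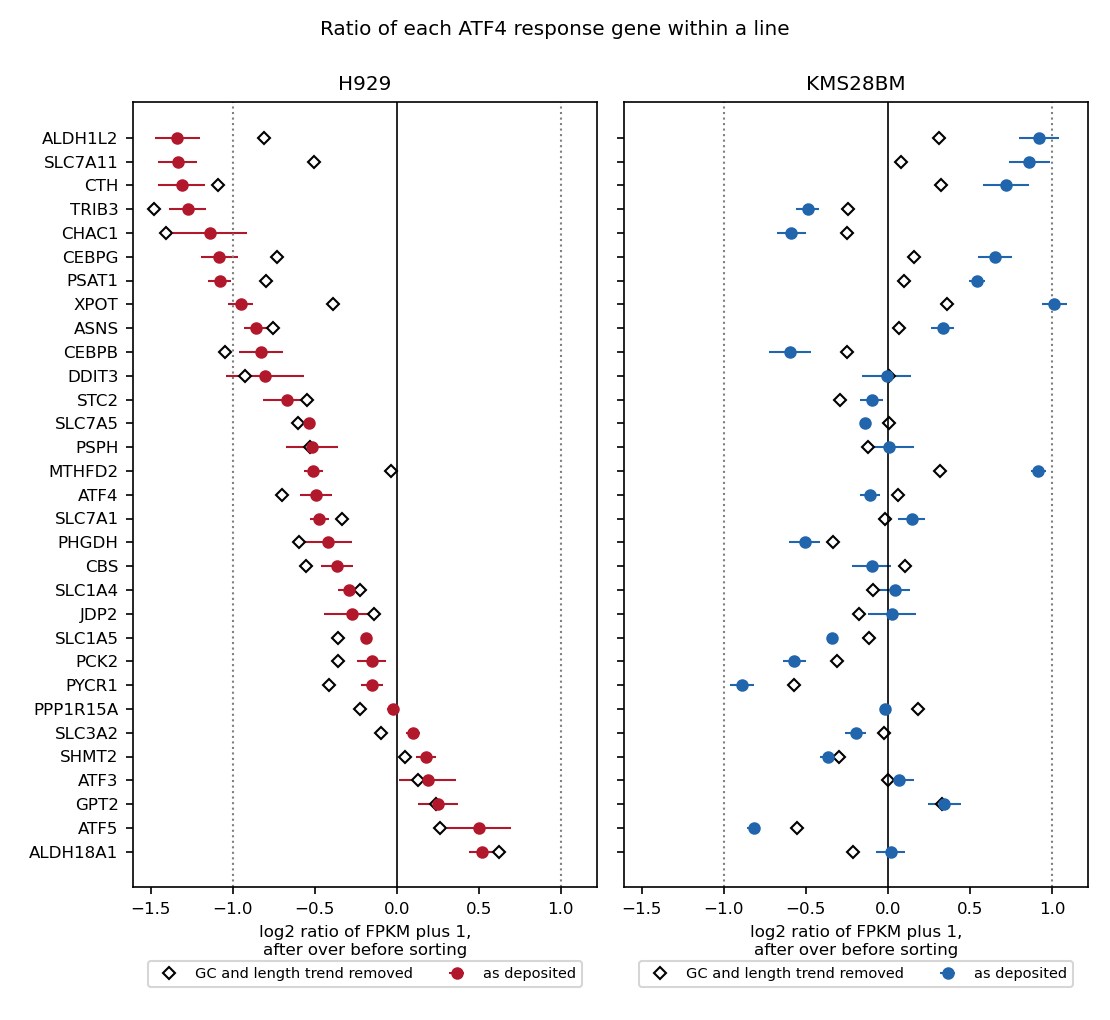
Log2 ratio of FPKM plus 1, after over before sorting, of the 31 genes measured in H929 (left) and KMS28BM (right); filled circles are values as deposited with 95% counting intervals from the estimated fragments as bars, open diamonds the values with the trend in GC content and length removed, and dotted lines 2-fold. As deposited 7 genes lie past 2-fold in H929 and 1 in KMS28BM, and the diamonds in KMS28BM lie between -0.57 and 0.36.

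The opposite signs in the lines moved with the base composition of the transcripts. Over all protein-coding genes measured, the rank correlation (Spearman's rho) of ratios with GC content was 0.54 in H929 and -0.75 in KMS28BM. Over the 31 members, which share the same 2 libraries in each line, it was 0.37 in H929 and -0.90 in KMS28BM. In KMS28BM the members thus ordered themselves almost wholly by GC content: XPOT, MTHFD2, ALDH1L2, SLC7A11 and CTH, with between 35.4% and 43.3% GC, had ratios of 0.72 to 1.014, and PYCR1, ATF5, CEBPB, CHAC1 and PCK2, with between 60.0% and 66.2%, had ratios of -0.89 to -0.57. With a trend in GC content and transcript length over all genes removed, the members' KMS28BM ratios lay between -0.57 (PYCR1) and 0.36 (XPOT). Their median over the 31 members was -0.02. Of the members 0 were past 2-fold in either direction, and of all 10423 genes 130 were 2-fold lower and 121 higher. The part of base composition in the ratios of single genes was otherwise not tested.

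In H929 most members stayed below 0 with that trend removed. Then 26 of 31 ratios were below 0 with a median of -0.51, against -0.0059 over all genes, but 4 members in place of 7 were 2-fold lower (12.9%, against 2.29% of the 11034 genes with a GC content). These 4 were TRIB3 (-1.48), CHAC1 (-1.41), CTH (-1.09) and CEBPB (-1.05). TRIB3, CHAC1 and CEBPB have 60.9%, 62.6% and 66.2% GC and stood below the trend, where genes of such composition had median ratios between 0.17 and 0.22. SLC7A11, with 35.4% GC, was at -0.51 with the trend removed, and XPOT, with 40.8%, at -0.39. MTHFD2 came to -0.03. In the same terms ATF4 was at -0.70, DDIT3 at -0.92, PSAT1 at -0.80, ASNS at -0.75 and CEBPG at -0.73.

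**Figure D4:**
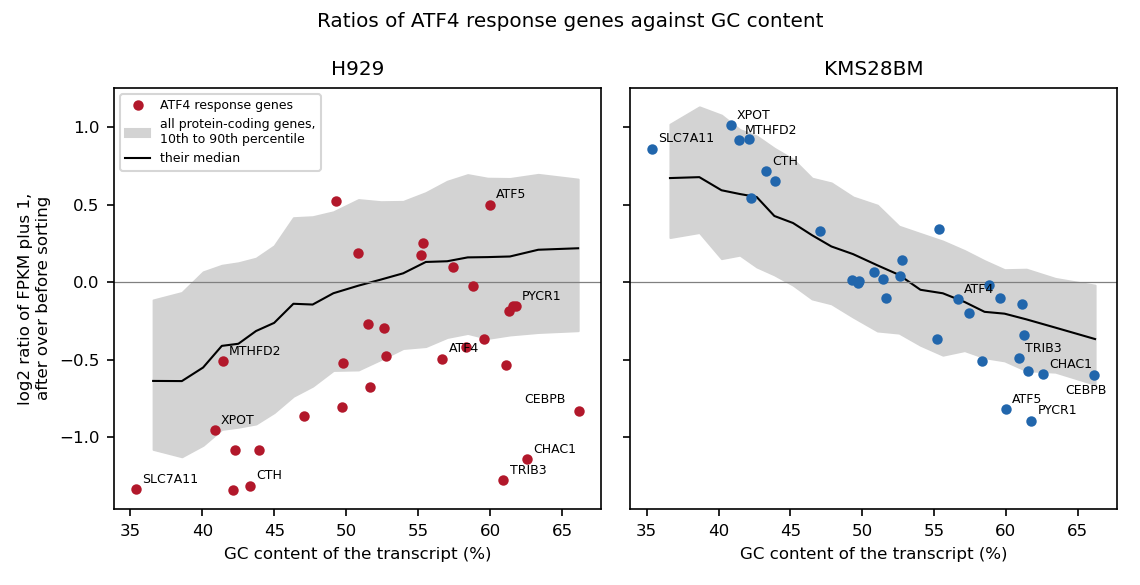
Log2 ratio, after over before sorting, against GC content (%) of the transcript for the 31 genes in H929 (left, red) and KMS28BM (right, blue); the black line is the median of all protein-coding genes measured in 20 bins of GC content and the grey band runs from their 10th to their 90th percentile. In KMS28BM the genes follow the falling line (rho -0.90), while in H929 TRIB3, CHAC1 and CEBPB lie furthest below the band at high GC content. Others there, such as SLC7A5, ATF4 and PHGDH, lie below it by less.

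A difference shared by both lines was the 1 change that could be tested, in a limma fit over the 4 libraries with the line as a term, which leaves 1 residual degree of freedom per gene and counts any difference between the lines in their ratios as error. Of the 31 members 0 passed at an adjusted p under 0.05 (the lowest was 1), and 14 of 12294 genes (0.114%) did. At an unadjusted threshold of 0.05, 2 members were past it, both lower, among 184 genes. These were TRIB3, with a shared log2 change of -0.88 (SE 0.39), and CHAC1, with -0.86 (SE 0.40). CEBPB came next at -0.71 (SE 0.39). The KMS28BM ratios of these 3 genes were -0.49, -0.59 and -0.60 as deposited. With the trend in GC content and length removed they were -0.24, -0.25 and -0.25. By sign alone, 15 of 31 members (48.4%) had opposite signs in the lines, against 69.1% of the 9261 genes measured in both. With the trend in GC content and length removed, 17 of 31 members (54.8%) had opposite signs, against 58.8% of 9232 genes. As deposited, 13 members were lower after sorting in both lines and 3 were higher in both. A further 12 were lower in H929 and higher in KMS28BM, and 3 the reverse.

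Levels also differed between the lines, in both libraries of each. These levels come from separate tables that may not have been scaled together, so they are described and not tested. Of the 31 members 10 (32.3%) had both KMS28BM libraries above both H929 libraries with a mean log2 difference of 1 or more, against 10.6% of 12294 genes, and 2 (6.45%) were lower by the same measure, against 14.3%. The median difference, KMS28BM over H929, was 0.64 for the members and -0.10 for all genes. ATF5 stood furthest apart, at a mean of 218 FPKM in KMS28BM against 6.66 in H929, followed by CHAC1, at 49.8 against 5.97, and STC2, at 24.7 against 4.07. ATF4 itself averaged 99.3 FPKM in KMS28BM against 35.0 in H929. The 2 lower in KMS28BM were both carriers, SLC3A2, at 79.4 against 162 FPKM, and SLC1A4, at 14.9 against 34.1.

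Genes around the programme gave its setting. Among 20 genes of the eIF2 kinases and the eIF2 machinery, all measured, 1 was 2-fold lower in H929 and 1 was 2-fold higher in KMS28BM, with medians of -0.13 and 0.57, or 0.08 and 0.02 with the trend removed. EIF2AK3, which encodes PERK, the kinase that senses misfolded protein, was at 3.04 FPKM after sorting against 6.99 before in H929 and at 20.9 against 8.28 in KMS28BM. EIF2AK2, the kinase PKR, which binds double-stranded RNA, had the lowest ratio of the list in H929, at 0.88 against 3.43 FPKM (-1.24). EIF2AK4, which encodes GCN2, the kinase for amino acid shortage, had ratios of -0.47 in H929 and 0.64 in KMS28BM, and EIF2AK1, the haem-regulated kinase, -0.11 and 0.31. The highest ratios in H929 were those of EIF2B2 (0.61) and EIF2B3 (0.57), subunits of the exchange factor for eIF2. All 4 kinases had ratios below 0 in H929 and above 0 in KMS28BM as deposited, but with the trend removed EIF2AK1 was at 0.15 and -0.07, EIF2AK2 was at -0.11 in KMS28BM, and 0 genes of the list were past 2-fold in either line.

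Of 20 other genes that ATF4 is known to act on, 17 were measured in each line; 4 were 2-fold lower and 1 higher in H929, and 0 lower and 2 higher in KMS28BM, with medians of -0.73 and 0.05 (-0.39 and 0.08 with the trend removed). SESN2, which restrains mTORC1, was at 19.6 FPKM after sorting against 56.0 before in H929 and 203 against 226 in KMS28BM, and ADM2, a peptide hormone gene, at 2.84 against 8.51 and 9.89 against 11.5. EPRS1, the glutamyl-prolyl-tRNA synthetase, was at 9.72 against 32.3 FPKM in H929 (-1.63) and 59.8 against 16.5 in KMS28BM (1.80). DDIT4, an inhibitor of mTORC1 that other stresses also induce, was far higher after sorting in H929, at 142 against 23.8 FPKM, and at 847 against 940 in KMS28BM. SESN2 and ADM2 resembled TRIB3 and CHAC1 in being lower in H929 after sorting with the trend removed too (-1.59 and -1.39). EPRS1 differed between the lines in sign, as CTH did, and with the trend removed was at -1.21 in H929 and 1.25 in KMS28BM. In those terms 3 genes of the list were 2-fold lower and 1 higher in H929, and 0 lower and 1 higher in KMS28BM.

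Of 17 other amino acid carriers, 11 were measured in H929 and 9 in KMS28BM. In H929 3 were 2-fold lower: SLC38A1, at 3.98 FPKM after sorting against 14.5 before, SLC38A2, at 7.35 against 21.2, and the glycine carrier SLC6A9, at 4.03 against 9.82. SLC38A1 and SLC38A2, carriers of small neutral amino acids, were the 2 that were 2-fold higher in KMS28BM, at 15.2 against 5.79 and 29.5 against 11.8 FPKM. With the trend removed they were at 0.61 and 0.54 there, and 2 carriers, SLC38A1 (-1.07) and SLC6A9 (-1.25), were 2-fold lower in H929. The folate cycle genes outside the programme, enzymes and carriers, leaned the other way in H929. Of 12 measured, 8 had ratios above 0, with a median of 0.37 (0.35 with the trend removed). TYMS, which makes thymidylate in the same folate cycle in which MTHFD2 and ALDH1L2 act, was at 102 FPKM after sorting against 58.7 before in H929 (0.79) and at 63.8 against 56.3 in KMS28BM (0.18).

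The IRE1 and ATF6 branches of the unfolded protein response, with 19 genes measured, had 4 genes 2-fold lower in H929 and 2 higher in KMS28BM, with medians of -0.19 and 0.25. The lower ones in H929 were the co-chaperone DNAJC3 (-1.52), SEL1L (-1.42), the chaperone HSP90B1 (-1.24) and ERN1, the sensor IRE1 itself (-1.24). With the trend removed, ERN1 (-1.03) was still 2-fold lower, while DNAJC3 was at -0.94, HSP90B1 at -0.91 and SEL1L at -0.77, and HSPA5 was 2-fold higher (1.05). In KMS28BM 0 genes of the list were then past 2-fold. HSPA5, the main chaperone of the endoplasmic reticulum, was at 307 FPKM after sorting against 177 before in H929. SDF2L1 was at 112 against 64.1 FPKM in H929, and these 2 had the highest ratios of the list there (both 0.79). In KMS28BM HSPA5 was at 1181 against 787 FPKM (0.59) and SDF2L1 at 118 against 171 (-0.53). A list of bZIP factors, of which some can pair or compete with ATF4, had 20 genes measured in each line. It also held CEBPZ, which has no bZIP domain despite its symbol. In H929 1 gene was 2-fold lower, NFE2L2, known as NRF2, at 1.27 against 4.29 FPKM. In KMS28BM 1 gene was 2-fold higher, MAFG, at 5.34 against 1.65 FPKM. The medians were -0.26 in H929 and 0.08 in KMS28BM. As deposited, none of these lists had a median in H929 as low as that of the programme except the other ATF4 genes, most of them tRNA synthetases. With the trend removed that list was at -0.39 and the programme at -0.51. The lists were chosen with earlier results known, and these medians are descriptions.

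**Figure D5:**
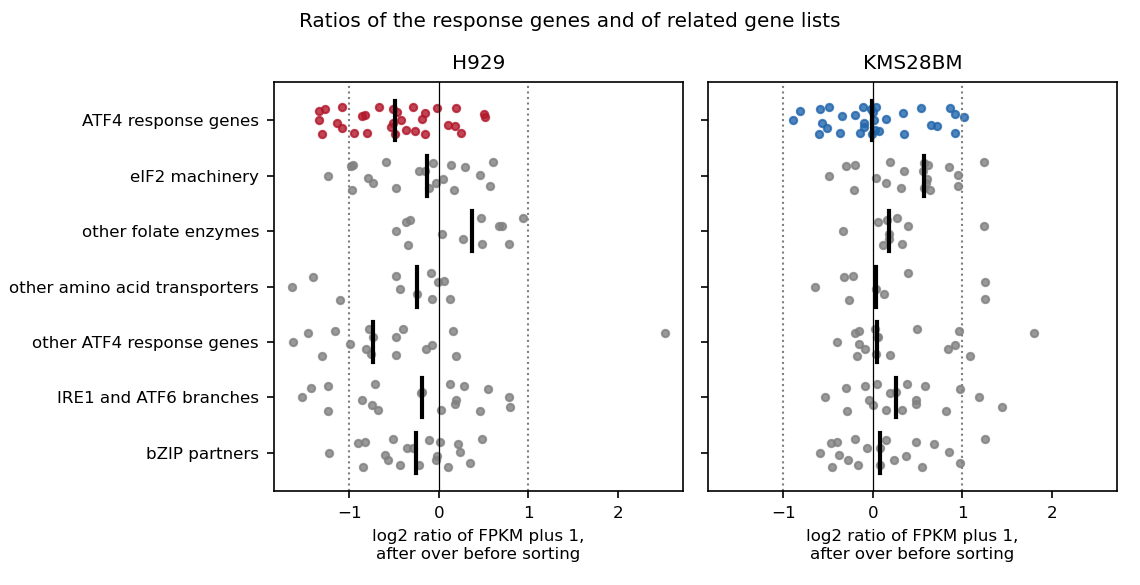
Log2 ratio, after over before sorting, of the ATF4 response genes (colour) and of the genes of 6 related lists (grey) in H929 (left) and KMS28BM (right); black bars are medians and dotted lines 2-fold. In H929 the medians run from -0.73 for the other ATF4 genes to 0.37 for the list labelled other folate enzymes, which also holds carriers. DDIT4 lies apart there at 2.52.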

How the data were processed

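Per the file headers, the deposited values are FPKM, 1 table per line; the tables also hold the authors' fold ratios, their log2 values, and p-values and q-values of the authors' own test. The submitters' processing notes name HISAT2 2.0, StringTie 1.3.0 and Bowtie 0.12.2 without their roles, and a mouse build, mm8; no human build is named in the sources used. Fragments of copies such as CBS and CBSL can be split between them.

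Groups came from the sample labels. Ratios were log2 of FPKM plus 1 (filter 1 FPKM in either library). The shared difference was fitted with limma 3.58.1 in R 4.3.3 over all genes (moderated spread with trend, Benjamini-Hochberg), a step checked on simulated data. GC content and length came from the longest coding transcript in GENCODE release 29, shared 50-base words from its transcripts, and promoters from RefSeq. For depth, FPKM times length was taken in genes with 1 transcript, where values pile up (within 1%) at that of 1 fragment. Counting errors cover sampling of fragments only. The trend was cubic in GC content and log2 length, fitted per line. Members and lists were chosen with earlier results of these data known. All 33 members are accounted for; from the other lists, up to 3 genes at each end of the H929 ratio were considered, and further ones named were chosen after their values were seen. Scripts ran on matplotlib 3.10.9, SciPy 1.17.1, pandas 2.3.3, numpy 2.4.6 and Python 3.11.15. Values of some single genes of the folate list are not reported here.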

Additional observations from a re-analysis of the deposited data

Results flagged for a closer look

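For 12 members the library labelled after sorting lay above the one labelled before in 1 line and below it in the other, each by more than its 95% counting interval; with 1 library per group the difference between the lines was not tested. The difference of the log2 ratios, H929 minus KMS28BM, was -2.26 for ALDH1L2, -2.20 for SLC7A11, -2.03 for CTH, -1.97 for XPOT, -1.73 for CEBPG, -1.62 for PSAT1, -1.43 for MTHFD2, -1.19 for ASNS and -0.62 for SLC7A1. It was 1.32 for ATF5, 0.55 for SHMT2 and 0.30 for SLC3A2. The 9 genes with a negative difference have between 35.4% and 52.7% GC in their transcripts, and the 3 with a positive one between 55.2% and 60.0%. With the trend in GC content and length removed, 10 of the 12 still had opposite signs, and the difference was -1.12 for ALDH1L2, -0.58 for SLC7A11, -1.41 for CTH, -0.75 for XPOT, -0.35 for MTHFD2 and 0.82 for ATF5; SLC7A1 and SLC3A2 then had the same sign in both lines. The 12 were picked by opposite signs in these same ratios, so the 10 that kept them are a description and not a test. Opposite signs were not particular to these genes. The share of all genes with opposite signs past their counting intervals was not computed. As deposited and without the interval rule, 69.1% of all genes measured in both lines had opposite signs, against 48.4% of the 31 members. Spearman's rho between the lines' ratios was then -0.51 over 9261 genes and -0.37 over the 31 members. With the trend removed, 58.8% of 9232 genes and 54.8% of the 31 members had opposite signs, and rho was -0.25 and -0.10.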

How the results depend on the processing

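The median of the members in H929 (-0.49) was between -0.58 and -0.47 with a pseudocount of 0.1, no filter, a filter at 5 FPKM, median centring or the trend removed; it was -0.38 with a pseudocount of 5 FPKM and -0.24 with trimmed-mean scaling; under that scaling all genes had a median of 0.10 in H929 and -0.06 in KMS28BM. The members 2-fold lower in H929 (7) were 3 with a pseudocount of 5, 4 with the trimmed mean, 4 with the trend in GC content and length removed and 12 at 1.5-fold. Over all 11083 genes measured in H929, 79 were 2-fold lower with a pseudocount of 5 and 328 with the trimmed mean. With the trend removed 253 of 11034 were. In KMS28BM the median was -0.23 with the trimmed mean. There the members 2-fold higher (1) were 3 with a pseudocount of 0.1, 0 with one of 5, 0 with the trimmed mean, 0 with the trend removed and 6 at 1.5-fold. Those 2-fold lower (0) were 2 with the trimmed mean and 4 at 1.5-fold. Over all 10472 genes measured in KMS28BM, 1283 were 2-fold higher with a pseudocount of 0.1, 58 with one of 5 and 197 with the trimmed mean. With the trend removed 121 of 10423 were higher, and with the trimmed mean 170 of 10472 were 2-fold lower. Shares over all genes at 1.5-fold were not computed. The cause of the shifts between settings was not tested. In the shared limma fit 0 members passed under any of the alternatives run, with 0 to 3 members past the unadjusted threshold. The share of all genes past that threshold ran from 0.976% with median centring to 2.65% with the trend removed, the setting with 3 members. Without a filter the tool warned that most residual variances were 0, so that fit is unreliable. No single member past 2-fold turned its sign. Scaling cannot be settled from 1 library per group.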
